A study of Homo sapiens with 8 samples.

Results

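The 10 genes described here are PAPPA, the stanniocalcins STC1 and STC2, the IGF-binding protein genes IGFBP2, IGFBP3, IGFBP4, IGFBP5, IGFBP6 and IGFBP7, and the receptor gene IGF1R. They were taken by name from the 23391 genes of the deposited count table, and the set was chosen by the measured counts of PAPPA, which were higher with DY131 in control cells. DU145 is an established line of human prostate cancer cells. These cells were transfected with the empty vector pcDNA3.1-zeo (+) or with the same vector carrying Esrrb, an orphan nuclear receptor of the estrogen related receptor family, and the selected cells were pooled as DU145-pc3.1 and DU145-Esrrb. All cells, controls included, went through 3 weeks of selection with 150 μg/ml Zeocin and were then kept in medium with charcoal-stripped serum. Each pool was given vehicle or 3 μM DY131, a synthetic ligand of Esrrb, which made 4 groups with 2 RNA-Seq libraries each. How long DY131 was present is not given in the sources used here, and all groups come from pools of transfected cells of 1 line.

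Insulin-like growth factors reach their receptor only when they are free of IGF-binding proteins. PAPPA is a secreted metalloprotease that cleaves IGF-binding proteins, foremost IGFBP4, and thereby releases the ligand, while STC1 and STC2 are secreted proteins that bind PAPPA and inhibit it. IGFBP3 is the main carrier of IGFs in the circulation and is known as a growth-restraining protein in prostate cells, and IGFBP6 binds IGF2 with preference.

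Promoter sequences of 4 members are given because Esrrb is known to bind DNA at the letters TCAAGGTCA, so that the window before each start site can be read beside the expression values. IGFBP3 is the member with the largest differences between the pools, IGFBP2 is the other member whose response to DY131 differed between them by 2-fold or more at an adjusted p under 0.05, PAPPA set the choice of the genes, and IGFBP4 is the substrate of PAPPA. Each window holds the 250 bases before a RefSeq start site on GRCh38.p14, read 5′ to 3′ on the strand of the gene, with AGGTCA or its reverse complement TGACCT in capitals. The windows are chr7:45921273-45921522 on the minus strand for IGFBP3, and on the plus strand chr2:216632578-216632827 for the first of 3 start sites of IGFBP2, chr9:116153541-116153790 for PAPPA and chr17:40443200-40443449 for IGFBP4.
IGFBP3: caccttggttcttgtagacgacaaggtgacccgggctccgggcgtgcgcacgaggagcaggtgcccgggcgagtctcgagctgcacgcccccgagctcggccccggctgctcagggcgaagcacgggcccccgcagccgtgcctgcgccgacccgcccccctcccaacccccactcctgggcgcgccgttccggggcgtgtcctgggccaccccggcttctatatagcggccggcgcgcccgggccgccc
IGFBP2: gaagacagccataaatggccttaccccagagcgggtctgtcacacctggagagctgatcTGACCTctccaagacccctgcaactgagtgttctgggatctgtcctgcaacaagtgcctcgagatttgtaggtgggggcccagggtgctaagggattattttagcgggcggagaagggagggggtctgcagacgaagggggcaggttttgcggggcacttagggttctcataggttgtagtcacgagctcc
PAPPA: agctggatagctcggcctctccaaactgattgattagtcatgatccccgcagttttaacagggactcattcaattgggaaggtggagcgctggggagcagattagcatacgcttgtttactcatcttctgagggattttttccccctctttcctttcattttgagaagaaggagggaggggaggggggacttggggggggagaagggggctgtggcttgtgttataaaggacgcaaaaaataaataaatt
IGFBP4: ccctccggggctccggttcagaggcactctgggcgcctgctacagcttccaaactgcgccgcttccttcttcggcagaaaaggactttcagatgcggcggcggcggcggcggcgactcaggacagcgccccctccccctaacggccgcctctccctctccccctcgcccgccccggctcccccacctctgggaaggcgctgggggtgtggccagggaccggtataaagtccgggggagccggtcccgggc

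Of the 10 members, 8 had a RefSeq promoter window away from chromosome 8, with 10 start sites in all. The letters AGGTCA, searched on both strands, were found in 1 of these 10 windows, the one of IGFBP2 printed above, on the opposite strand 191 bases before the start. Among all 35116 windows of the same length, 12.1% held AGGTCA, 3.44% held AAGGTCA and 0.319% held TCAAGGTCA, each longer motif containing the shorter one. None of these 10 windows held AAGGTCA or TCAAGGTCA, which says only that these letters are not in these 250 bases. STC1 and IGFBP7 had no window here and were not searched.

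The reads counted on genes numbered from 7858743 to 11551690 per library. On ESRRB itself, 3 and 0 reads were counted in the vehicle libraries of DU145-pc3.1 and 0 and 1 with DY131, against 104 and 99 in DU145-Esrrb with vehicle and 105 and 143 with DY131, so that every library went with its labelled pool. The epithelial markers KRT8, KRT18, EPCAM and CDH1 were all above the filter and summed to between 2108 and 2742 cpm (the count scaled to the effective size of its library). Of 6 fibroblast markers, 1 was above the filter, and their sum was between 3.00 and 6.07 cpm. The replicates of DU145-pc3.1 with DY131 stood farther apart than the others, with a chi-square per degree of freedom of 7.10 over the genes against 1.29 to 2.60 in the other 3 groups. Bulk counts cannot tell fewer expressing cells from less RNA per cell.

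The filter, a level of 1 cpm or more in 2 or more libraries, was passed by 8 members among 13856 genes tested. IGFBP5 and IGFBP7, the latter with a lower affinity for IGFs than the other binding proteins, were not tested. On IGFBP5 there were 4 and 1 reads in DU145-pc3.1 with vehicle, 3 and 0 reads in DU145-Esrrb with vehicle, and 0 reads in each of the 4 DY131 libraries. The 4 vehicle libraries thus held 8 reads. For 0 reads, the exact 95% counting interval reached up to between 0.345 and 0.481 cpm in the 4 DY131 libraries. A difference of IGFBP5 with DY131 was not tested, since the gene did not pass the filter. IGFBP7 had 1 read in 1 DU145-Esrrb vehicle library, 1 read in 1 DU145-pc3.1 DY131 library and none elsewhere. The exact counting intervals given here cover counting error only.

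**Figure D1:**
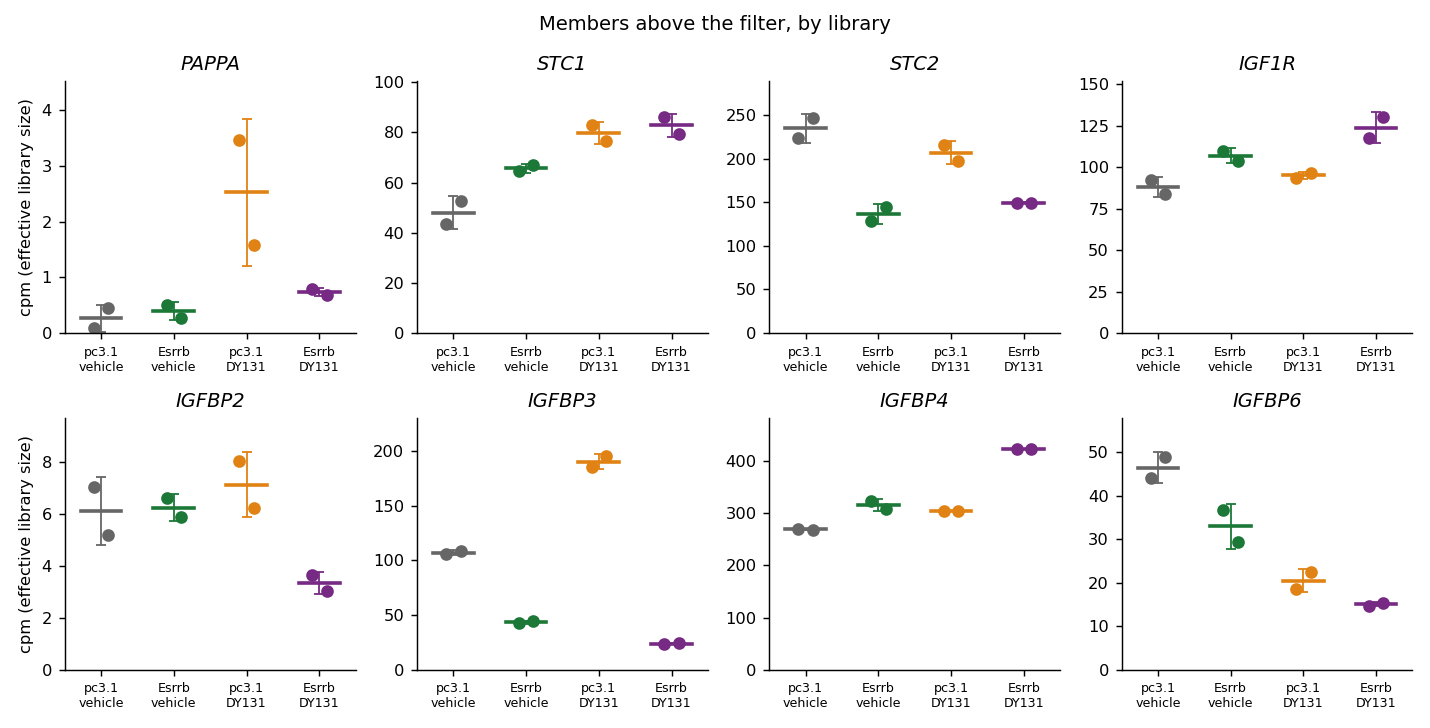
Level of the 8 members above the filter in cpm (vertical axis, linear, from 0) in the 4 groups; points are libraries, lines the mean and bars the SD of 2 libraries. IGFBP3 lies between 185 and 195 cpm in DU145-pc3.1 with DY131 and between 23.6 and 24.3 cpm in DU145-Esrrb with DY131, and PAPPA exceeds 1 cpm in the treated DU145-pc3.1 libraries alone.

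PAPPA, the protease, was counted in every library but at few reads. In DU145-pc3.1 cells there were 1 and 5 reads with vehicle (0.0954 and 0.440 cpm) and 37 and 16 reads with DY131 (3.46 and 1.59 cpm). The libraries did not overlap, and both DY131 libraries were above every other library of the series. Relative to effective library size, the summed reads were 9.28 times higher with DY131, with a 95% exact counting interval of 3.99 to 26.4, and the fitted log2 fold change was 3.16 ± 0.59 (SE). This is the contrast that chose the gene, and it is a description without a test. Leaving out the second vehicle replicate of DU145-pc3.1 moved it to 4.57.

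In DU145-Esrrb cells PAPPA had 6 and 3 reads with vehicle (0.509 and 0.276 cpm) and 6 and 6 reads with DY131 (0.782 and 0.678 cpm). These 4 libraries have no part in the contrast that chose the gene, although PAPPA passed the filter on low counts only through the treated DU145-pc3.1 libraries, since every other library was below 1 cpm. The log2 fold change with DY131 was 0.85 ± 0.74 (SE), higher in 2 of 2 libraries, with an adjusted p = 0.336 by edgeR's quasi-likelihood test and a 95% interval from −0.72 to 2.43. The adjusted p was between 0.255 and 0.648 in the alternatives. A rise of PAPPA with DY131 was therefore not detectable in DU145-Esrrb at 3 to 6 reads a library, and the interval reaches well beyond 2-fold. Set side by side with DY131 present, each DU145-Esrrb library was below the DU145-pc3.1 libraries, with a log2 difference of −1.79 ± 0.51 (SE), and the response in DU145-Esrrb minus that in DU145-pc3.1 was −2.30 ± 1.03 (SE). Both use the libraries that chose the gene and are descriptions. The former was −1.13 without the first DU145-pc3.1 DY131 replicate, and the latter was −3.71 without the second DU145-pc3.1 vehicle replicate and ranged from −3.71 to −1.64 over the alternatives.

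PAPPA lies at chromosome 9, 116153804 to 116402322, on the plus strand of GRCh38 in GENCODE 29, and 22.0% of its 50-base transcript windows are also found, in antisense, in PAPPA-AS1. The library kit kept strand, but whether the counting used it is not stated, so that a part of the PAPPA reads may come from PAPPA-AS1. No gene shared windows in the same sense with any member. The 3 tested genes whose log2 cpm followed that of PAPPA most closely over the 8 libraries were RAD54L, ATRIP and C2CD3, with Pearson's r of 0.972, 0.964 and 0.962, given as a description over libraries that share 4 groups.

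STC1 and STC2, the inhibitors of PAPPA, differed between the pools in opposite directions with vehicle. STC2 was at 223 and 247 cpm in DU145-pc3.1 and at 128 and 144 cpm in DU145-Esrrb. The groups did not overlap, and the log2 fold change was −0.79 ± 0.07 (SE, adjusted p = 9.92e-06), which remains short of a 2-fold change. STC1 was at 43.5 and 52.6 cpm in DU145-pc3.1 and at 64.4 and 66.9 cpm in DU145-Esrrb, a log2 fold change of 0.45 ± 0.09 (SE, adjusted p = 0.00838). The STC1 difference lost the adjusted p threshold without the first DU145-pc3.1 vehicle replicate (adjusted p = 0.148) and without either DU145-Esrrb vehicle replicate (adjusted p = 0.0606 and 0.0961).

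With DY131, STC1 was at 82.9 and 76.6 cpm in DU145-pc3.1 and at 86.0 and 79.5 cpm in DU145-Esrrb, so that the treated pools overlapped. The DY131 log2 fold change of STC1 was 0.73 in DU145-pc3.1, as a description, and 0.33 ± 0.09 (SE, adjusted p = 0.00353) in DU145-Esrrb. Without treated DU145-Esrrb library a the latter had an adjusted p = 0.0558. The difference between the responses was −0.40 ± 0.12 (SE, adjusted p = 0.0210), and it missed the threshold with DESeq2 and without the first DU145-pc3.1 vehicle replicate, the second DU145-Esrrb vehicle replicate or treated DU145-Esrrb library b (adjusted p of 0.0543, 0.107, 0.0738 and 0.109). STC2 with DY131 was at 216 and 197 cpm in DU145-pc3.1 and at 149 and 150 cpm in DU145-Esrrb. It was lower in the treated DU145-Esrrb libraries by a log2 fold change of −0.47 ± 0.07 (SE, adjusted p = 7.63e-05), while its DY131 response in DU145-Esrrb, 0.13 ± 0.07 (SE), did not pass (adjusted p = 0.132). The ratio of STC2 to STC1 per transcript length was 3.56 ± 0.224 (SD, n = 2) in DU145-pc3.1 with vehicle, 1.44 and 1.57 in the libraries of DU145-Esrrb with vehicle, 1.88 ± 0.0148 in DU145-pc3.1 with DY131 and 1.31 ± 0.0769 in DU145-Esrrb with DY131. STC2 was the more abundant of the inhibitors in all 8 libraries.

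IGFBP3 had the largest difference between the pools among the 8 tested members with vehicle, and also with DY131. It was at 106 and 108 cpm in DU145-pc3.1 with vehicle, at 42.4 and 44.1 cpm in DU145-Esrrb with vehicle, at 185 and 195 cpm in DU145-pc3.1 with DY131 and at 23.6 and 24.3 cpm in DU145-Esrrb with DY131. The 4 groups did not overlap, and the order ran from treated DU145-Esrrb to treated DU145-pc3.1. With vehicle IGFBP3 fell in DU145-Esrrb by 1.31 on the log2 scale, 2.48-fold (SE 0.07, adjusted p = 6.04e-09). With DY131 it was lower in DU145-Esrrb than in DU145-pc3.1 by a log2 fold change of −2.99 ± 0.07 (SE, adjusted p = 2.14e-13), which is 7.93-fold.

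The responses of IGFBP3 to DY131 went in opposite directions. In DU145-pc3.1 the log2 fold change with DY131 was 0.83 ± 0.06 (SE), higher in 2 of 2 libraries, as a description. In DU145-Esrrb it was −0.85 ± 0.08 (SE, adjusted p = 5.42e-07), lower in 2 of 2 libraries and short of 2-fold. The difference between these responses was −1.68 ± 0.10 (SE, adjusted p = 1.42e-08 by edgeR's quasi-likelihood test for the interaction), a 3.20-fold difference, with a 95% interval from −1.90 to −1.46. The interaction uses the control libraries with DY131, where PAPPA chose the genes, and IGFBP3 itself was not the gene of the rule. The IGFBP3 calls between the pools and in the interaction held in all alternatives, with ranges of −1.34 to −1.28 with vehicle, −3.11 to −2.95 with DY131 and −1.80 to −1.64 for the interaction. The 3 tested genes closest to IGFBP3 over the 8 libraries were POC5, PTPRU and TMED9, with Pearson's r of 0.991, 0.989 and 0.988, as a description.

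**Figure D2:**
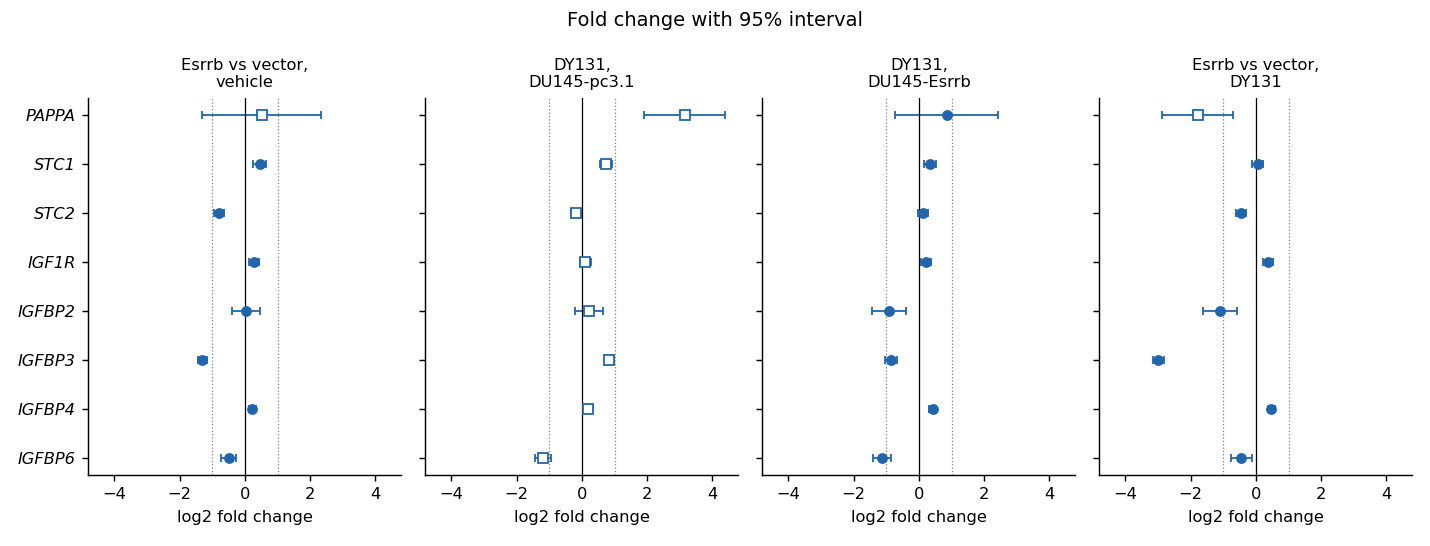
Log2 fold change (horizontal axis, log scale) of the 8 tested members in 4 comparisons, with 95% intervals from the model of 8 libraries; open squares are descriptions without a test, filled circles were tested, and dotted lines mark a 2-fold change. IGFBP3 lies at 0.83 with DY131 in DU145-pc3.1 and at −0.85 with DY131 in DU145-Esrrb, while IGFBP6 lies at −1.18 and −1.13.

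IGFBP6 was lower with DY131 in both pools. It was at 44.0 and 49.0 cpm in DU145-pc3.1 with vehicle and at 18.6 and 22.4 cpm with DY131, and at 36.7 and 29.3 cpm in DU145-Esrrb with vehicle and at 14.7 and 15.4 cpm with DY131. No treated library reached the level of an untreated library in either pool. In DU145-Esrrb IGFBP6 fell with DY131 by 1.13 on the log2 scale, 2.19-fold (SE 0.13, adjusted p = 3.55e-06). In DU145-pc3.1 the log2 fold change was −1.18 ± 0.12 (SE), as a description. The difference between the responses was 0.05 ± 0.18 (SE, adjusted p = 0.859), with a 95% interval from −0.34 to 0.44, which holds differences of either sign. Without the first DU145-Esrrb vehicle replicate the fall in DU145-Esrrb was 0.96 on the log2 scale, short of 2-fold, with an adjusted p = 0.000109 (4.11e-20 to 0.000314 over the alternatives).

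Between the pools IGFBP6 was lower in DU145-Esrrb by a log2 fold change of −0.49 ± 0.11 (SE, adjusted p = 0.0172) with vehicle and −0.44 ± 0.14 (SE, adjusted p = 0.0188) with DY131. With vehicle the adjusted p ranged from 3.57e-05 to 0.257 over the alternatives. It missed the threshold with DESeq2 (0.0664) and when either DU145-pc3.1 vehicle replicate or the second DU145-Esrrb vehicle replicate was left out (0.0625, 0.217 and 0.257). With DY131 it missed the threshold without the second DU145-pc3.1 DY131 replicate or either treated DU145-Esrrb library (0.107, 0.0995 and 0.0743).

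IGFBP2, the least abundant of the 4 tested binding proteins, was lowest where both Esrrb and DY131 were present, and the difference between its responses was tested. It was at 7.06 and 5.19 cpm in DU145-pc3.1 with vehicle, at 6.62 and 5.89 cpm in DU145-Esrrb with vehicle, at 8.04 and 6.25 cpm in DU145-pc3.1 with DY131 and at 3.65 and 3.05 cpm in DU145-Esrrb with DY131. The 6 libraries of the first 3 groups overlapped, and the 2 treated DU145-Esrrb libraries were below all of them. The difference between the responses was −1.14 ± 0.32 (SE, adjusted p = 0.0120), a 2.20-fold difference. With DY131 IGFBP2 fell in DU145-Esrrb against DU145-pc3.1 by 1.10 on the log2 scale (SE 0.24, adjusted p = 0.00136), and within DU145-Esrrb the log2 fold change with DY131 was −0.91 ± 0.24 (SE, adjusted p = 0.00464, and 0.0627 without treated DU145-Esrrb library b). The interaction call was lost with DESeq2 (adjusted p = 0.0735), and it was lost without the second DU145-pc3.1 vehicle replicate (−0.93, adjusted p = 0.0552), without the first DU145-Esrrb vehicle replicate (−1.05, adjusted p = 0.0518), without the first DU145-pc3.1 DY131 replicate (−0.96, adjusted p = 0.0213, under 2-fold) and without treated DU145-Esrrb library b (−1.01, adjusted p = 0.0751). Over all alternatives the adjusted p ranged from 0.00122 to 0.0751.

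IGFBP4, the known substrate of PAPPA, was the most abundant member per transcript length in all 4 groups. It was at 270 and 268 cpm in DU145-pc3.1 with vehicle, 323 and 308 cpm in DU145-Esrrb with vehicle, 304 and 305 cpm in DU145-pc3.1 with DY131 and 424 and 424 cpm in DU145-Esrrb with DY131. With DY131 it was higher in DU145-Esrrb by a log2 fold change of 0.42 ± 0.05 (SE, adjusted p = 7.48e-06) against vehicle and by 0.48 ± 0.05 (SE, adjusted p = 3.78e-06) against treated DU145-pc3.1. With vehicle the difference between the pools was 0.23 ± 0.05 (SE, adjusted p = 0.0235), and it missed the threshold when any one vehicle library was left out, with adjusted p between 0.105 and 0.293, and without treated DU145-Esrrb library a or b (0.0649 and 0.0647). None of these reached 2-fold.

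IGF1R, the receptor of IGF1 and IGF2 that signals to growth and survival, was at 92.3 and 83.7 cpm in DU145-pc3.1 with vehicle, 110 and 104 cpm in DU145-Esrrb with vehicle, 93.6 and 96.3 cpm in DU145-pc3.1 with DY131 and 117 and 130 cpm in DU145-Esrrb with DY131. It was higher in DU145-Esrrb with vehicle by a log2 fold change of 0.28 ± 0.07 (SE, adjusted p = 0.0364) and with DY131 by 0.39 ± 0.07 (SE, adjusted p = 0.000405). Within DU145-Esrrb the DY131 difference was 0.21 ± 0.07 (SE, adjusted p = 0.0171). It missed the threshold with scaling by library size alone and with the correction for transcript length and GC content. Without the second DU145-Esrrb vehicle replicate or treated DU145-Esrrb library b it missed the threshold as well. The difference with vehicle missed it with DESeq2 (0.0862), when any one vehicle library was left out (0.0756 to 0.343), and without treated DU145-Esrrb library a or b (0.0611 and 0.0612).

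Per kilobase of transcript, the order of the members changed between the groups. In DU145-pc3.1 with vehicle IGFBP4 (122 cpm per kb) was followed by IGFBP3 (47.3), STC2 (43.9), IGFBP6 (39.8), STC1 (12.4), IGF1R (7.19) and IGFBP2 (4.26), and the neighbours STC2 and IGFBP6 overlapped. In DU145-Esrrb with DY131 the order was IGFBP4 (193 cpm per kb), STC2 (27.9), STC1 (21.3), IGFBP6 (12.9), IGFBP3 (10.6), IGF1R (10.1) and IGFBP2 (2.33), and the neighbours IGFBP3 and IGF1R overlapped. PAPPA was at 0.0244 and 0.0666 cpm per kb in these groups and at 0.230 cpm per kb in DU145-pc3.1 with DY131, below the 7 other tested members in all 4 groups.

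The make-up of the binding protein mRNAs moved more than their sum. The summed level of the 6 IGFBP genes was 214 ± 2.17 cpm per kb (SD, n = 2) in DU145-pc3.1 with vehicle, 195 ± 9.21 in DU145-Esrrb with vehicle, 245 ± 4.88 in DU145-pc3.1 with DY131 and 218 ± 0.301 in DU145-Esrrb with DY131. IGFBP3 made up 22.1% ± 0.164 of the sum in DU145-pc3.1 with vehicle, 9.81% ± 0.748 in DU145-Esrrb with vehicle, 34.3% ± 0.538 in DU145-pc3.1 with DY131 and 4.85% ± 0.0944 in DU145-Esrrb with DY131. IGFBP4 made up 57.2%, 73.5%, 56.5% and 88.2% in the same order of groups. IGFBP6 made up 18.6%, 14.4%, 7.15% and 5.90%. The ratio of IGFBP4 to IGFBP3 thus ranged from 1.65 ± 0.0538 (SD, n = 2) in DU145-pc3.1 with DY131 to 18.2 ± 0.380 in DU145-Esrrb with DY131.

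**Figure D3:**
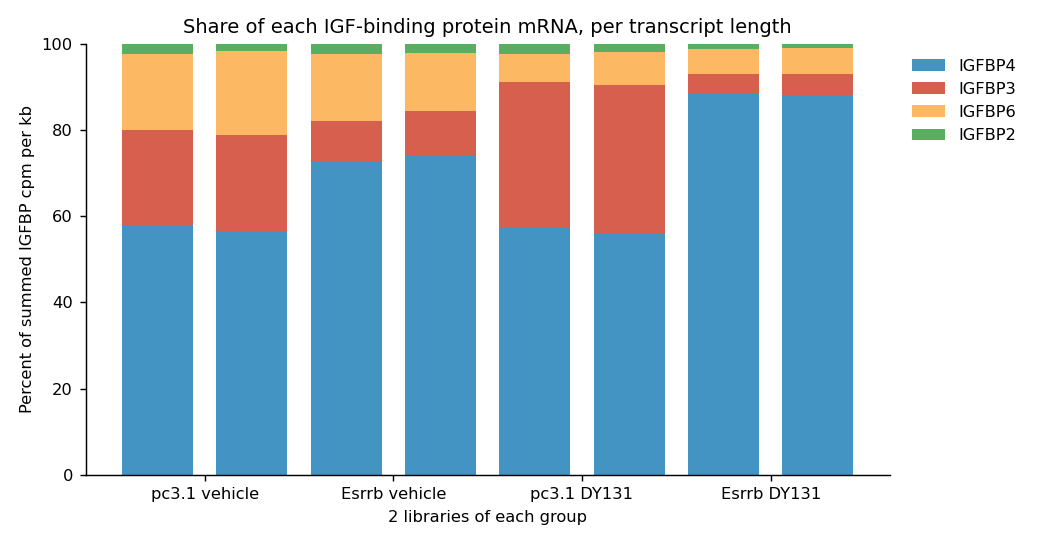
Share of each binding protein gene in the summed IGFBP level per transcript length (percent, vertical axis) in each of the 8 libraries, in pairs by group; IGFBP5 and IGFBP7 are under 0.1% and are not drawn. IGFBP4 makes up 88.2% in DU145-Esrrb with DY131, where IGFBP3 makes up 4.85%, against 34.3% for IGFBP3 in DU145-pc3.1 with DY131.

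Called genes had an adjusted p under 0.05 and a change of 2-fold or more in either direction. The counts that follow leave out PAPPA, which passed the filter through the treated DU145-pc3.1 libraries that chose it, and thus cover 7 members. Between the pools with vehicle 1 of 7 was called, IGFBP3, against 0.577% of all genes tested. With DY131 in DU145-Esrrb 1 of 7 was called, IGFBP6, against 12% of all genes, and between the pools with DY131 2 of 7, IGFBP3 and IGFBP2, against 8.21%. The interaction called 2 of 7, IGFBP3 and IGFBP2, against 6.28%. In the contrast of the rule, DY131 in DU145-pc3.1, 1 of 7 passed both thresholds, IGFBP6, against 4.19%, from which nothing is read. Members that passed the adjusted p alone numbered 6 of 7 with vehicle between the pools, against 4.18% of all genes. When only the groups compared entered the fit, the same 6 passed, against 8.93% of all genes. With single libraries left out this count was 2 without the first DU145-pc3.1 or the second DU145-Esrrb vehicle replicate, 3 without the second DU145-pc3.1 or the first DU145-Esrrb vehicle replicate, and 4 without treated DU145-Esrrb library a or b, while STC2 and IGFBP3 passed in each of these fits, in which 1.03% to 2.6% of all genes passed. With DY131 in DU145-Esrrb 6 of 7 passed the adjusted p alone, against 58.7%, and 4 without treated DU145-Esrrb library b, where IGFBP2 and IGF1R did not. Between the treated pools 6 of 7 passed it, against 50.4%. For the interaction 5 of 7 passed it, against 33.7%, and 1 without treated DU145-Esrrb library b (IGFBP3), 2 without the second DU145-pc3.1 vehicle replicate, and 3 without the first DU145-pc3.1 vehicle replicate, either DU145-Esrrb vehicle replicate or treated DU145-Esrrb library a, while 23.2% to 25.7% of all genes passed in these fits. The median log2 fold change of the 7 members was 0.04, 0.13, −0.44 and 0.05 in these 4 comparisons, while that of all genes tested was within 0.01 of 0. In the fits without a DU145-pc3.1 DY131 replicate, not listed above, larger shares of all genes passed between the vehicle pools and for the interaction. The comparisons share libraries, and so their values are not independent of each other.

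In the comparisons with treated DU145-Esrrb libraries, fold changes of all genes moved with the share of 50-base windows of the transcript that cross exon junctions. Spearman's correlation across 13665 genes, which are not independent replicates, was −0.374 for DY131 in DU145-Esrrb, −0.475 between the treated pools and −0.458 for the interaction, against −0.038 between the pools with vehicle and 0.010 for DY131 in DU145-pc3.1. For DY131 in DU145-Esrrb the genes with the lowest shares, 1367 of them, had a median log2 fold change of 0.26, and the 1367 with the highest had −0.55. The 8 tested members lay between percentile 9.71 (STC2) and percentile 46.4 (IGFBP6) of this share. With a correction for the share, the DY131 log2 fold changes in DU145-Esrrb were −0.98 for IGFBP3, −1.16 for IGFBP6 and −0.99 for IGFBP2. STC1 was then at 0.10 (adjusted p = 0.338), IGF1R at 0.07 (adjusted p = 0.426) and STC2 at −0.11 (adjusted p = 0.216), and IGFBP4 was at 0.25 (adjusted p = 0.00108). The interaction of IGFBP4 was 0.25 (adjusted p = 0.0220) without and 0.08 (adjusted p = 0.516) with the correction, and that of STC2 was 0.32 (adjusted p = 0.0243) without and 0.06 (adjusted p = 0.738) with it. Both also missed the threshold when single libraries were left out, IGFBP4 in 5 of 8 cases and STC2 in 4 of 8, with adjusted p of up to 0.114 and 0.144. The part of this share in the differences was not tested.

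**Figure D4:**
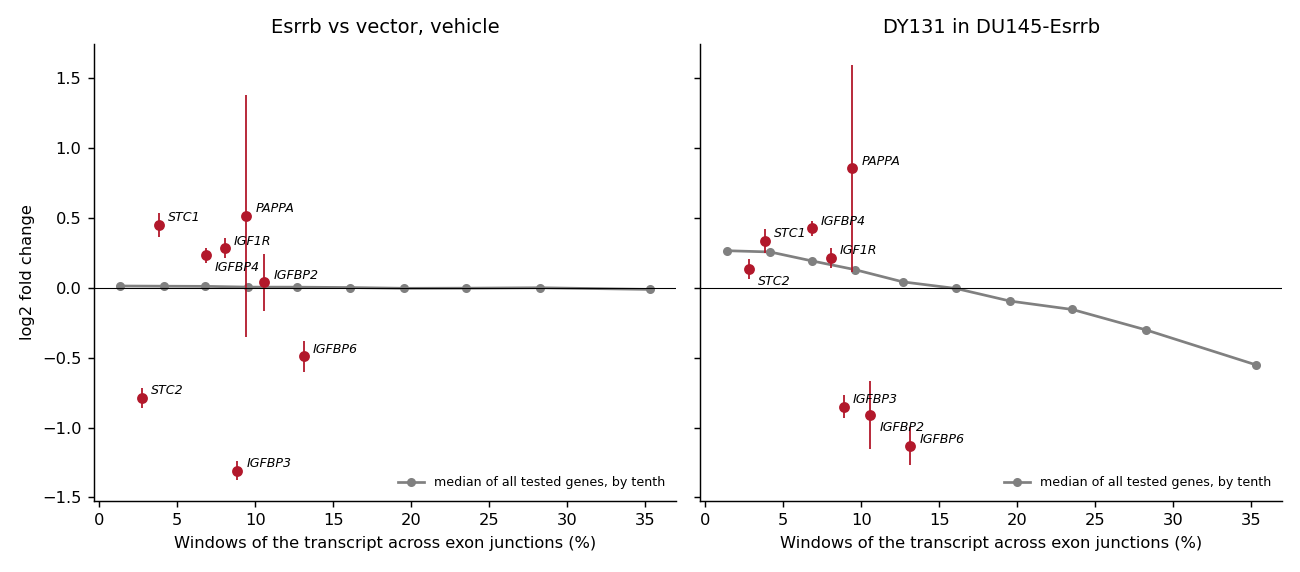
Log2 fold change (vertical axis) against the share of transcript windows across exon junctions (horizontal axis, percent) between the pools with vehicle (left) and for DY131 in DU145-Esrrb (right); grey points are medians of all tested genes in 10 bins of the share, red points the 8 tested members with their SE. On the right the grey medians go from 0.26 to −0.55, and IGFBP3, IGFBP2, IGFBP6 and STC2 lie below them.

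Other genes of the pathway were described from a list of 59 that holds the ligands, other receptors, other binding proteins and proteases, and the signalling proteins below the receptor, of which 44 were tested. Between the pools with vehicle 0 of 44 were called by edgeR's quasi-likelihood test, its exact test or DESeq2. By the quasi-likelihood test 5 of 44 passed the adjusted p alone, against 4.18% of all genes tested. An unadjusted p under 0.05 was found for 14 of 44, against 16.6% of all genes. Both shares of the list were above those of all genes. With DY131 in DU145-Esrrb 2 rose and 3 fell. MMP1, a collagenase that can cleave IGF-binding proteins, rose by 1.60 ± 0.27 (log2, SE, adjusted p = 0.000137) and FOXO3, a transcription factor held back by IGF signalling, by 1.04 ± 0.10 (adjusted p = 2.75e-07). GRB14, an adaptor that inhibits receptor signalling, fell by 1.46 (SE 0.37, adjusted p = 0.00306), and C1R and C1S, serine proteases of complement, fell by 1.17 and 1.14 on the log2 scale. MMP1 was called in all 19 alternatives, FOXO3 in 14 of 19 (0.77 with the junction correction, 0.98 without treated DU145-Esrrb library a, both under 2-fold), GRB14 in 17 of 18, C1R in 18 of 19 and C1S in 17 of 19. GRB14 (−0.98, adjusted p = 0.0556) and C1S (−0.85, adjusted p = 0.0797) were lost without treated DU145-Esrrb library a, and C1R (−0.90) and C1S (−0.71, adjusted p = 0.106) without the first DU145-Esrrb vehicle replicate. In the interaction MMP1 was at 1.48, GRB14 at −2.10 and ADAM12, a metalloprotease that cleaves IGFBP3 and IGFBP5, at −1.01, with adjusted p of 0.0208, 0.00306 and 0.00584. GRB14 was called in all 16 alternatives of the interaction, while MMP1 and ADAM12 were each called in 12 of 17. MMP1 was at 0.91 without the second DU145-pc3.1 DY131 replicate, and its adjusted p was 0.127 without the second DU145-pc3.1 vehicle replicate, 0.0561 without the second DU145-Esrrb vehicle replicate, and 0.0713 and 0.0522 without treated DU145-Esrrb library a and b. ADAM12 stayed under 2-fold without the second vehicle replicate of either pool (−0.97 and −0.89), the first DU145-pc3.1 DY131 replicate (−0.93) or treated DU145-Esrrb library b (−0.88). Called shares of the list were 11.4% with DY131 in DU145-Esrrb and 6.82% both between the treated pools and for the interaction, against 12%, 8.21% and 6.28% of all genes.

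The ligands were near the limit of detection. IGF1 had 2 to 10 reads in the 6 libraries outside treated DU145-Esrrb and 0 reads in both treated DU145-Esrrb libraries, and it did not pass the filter. IGF2 had 4 to 16 reads in every library and passed no comparison, with adjusted p between 0.148 and 0.770. IGF2R, which takes IGF2 up for degradation, was higher with DY131 in DU145-Esrrb by a log2 fold change of 0.23 ± 0.08 (SE, adjusted p = 0.0199), and INSR, the insulin receptor, was at −0.24 ± 0.14 (SE, adjusted p = 0.154). In DU145-pc3.1 their log2 fold changes with DY131 were 0.48 and −0.46, as a description. PAPPA2, the other pappalysin, had 13 to 42 reads a library and a log2 fold change with DY131 of −0.43 ± 0.31 (SE, adjusted p = 0.252) in DU145-Esrrb, while in DU145-pc3.1, where PAPPA was higher, its log2 fold change was −0.77 as a description.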

How the data were processed

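RNA-Seq was performed on 8 libraries of DU145 cells from a stranded mRNA kit with single reads. The authors trimmed the reads with the FASTX-Toolkit, aligned them with TopHat2 to the hg18 build, and deposited raw read counts per gene from their program MULTICOM-MAP, without normalization. How strand and multiply mapped reads were counted is not stated. Groups came from the sample descriptions, and the first and second replicates are numbered by the sample titles. The columns of treated DU145-Esrrb cells, named library a and b in their order in the table, share 1 heading and have no replicate numbers. The study names 2 biological replicates per group, and p-values rest on the spread between libraries within groups, shared over the 4 groups. The study pooled its transfected cells, so whether these replicates hold separate transfections is not known here. The spread between transfections may thus not be covered.

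Genes at 1 cpm or more in 2 or more libraries entered the test. Counts were normalized by TMM, and all 8 libraries entered 1 model with 4 groups, tested by quasi-likelihood F tests in edgeR. P-values were adjusted by Benjamini-Hochberg over all 13856 genes. R 4.3.3, edgeR 4.0.16, limma 3.58.1, DESeq2 1.42.0, Python 3.11.15, numpy 2.4.6, pandas 2.3.3 and matplotlib 3.10.9 were used. The test between the vehicle pools and the junction correction were tried on simulated counts. That simulation did not cover the interaction or changes under 2-fold. The log2 cpm behind likeness used a prior count of 2. Counting intervals are exact at the 95% level. The 95% intervals of log2 fold changes are approximate and come from the model's SE.

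The text names the 10 members, ESRRB, and of the pathway list at most the 4 called genes with the largest change in each comparison plus IGF1, IGF2, INSR, IGF2R and PAPPA2, and, beyond that rule and after its value was seen, FOXO3. The members and lists were chosen with earlier results of these data known. Lengths, junction shares and positions come from GENCODE 29 on GRCh38, not hg18. The match used RefSeq identifiers for 22018 genes, symbols for 721 and synonyms for 151, and left 501 without a match. Alternatives were other tests, scalings, filters and fold thresholds, only the groups compared, left-out libraries, a replicate block, and corrections for exon junctions and for length and GC content. One further marker list is not reported here.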

Additional observations from a re-analysis of the deposited data

Results flagged for a closer look

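The response to DY131 differed between the pools by 2-fold or more, at an adjusted p under 0.05 in a test of the difference itself, for 2 members. For IGFBP3 the response in DU145-Esrrb minus that in DU145-pc3.1 was −1.68 on the log2 scale (SE 0.10, adjusted p = 1.42e-08 by edgeR's quasi-likelihood test). For IGFBP2 it was −1.14 (SE 0.32, adjusted p = 0.0120), with the alternatives given beside its values above.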

How the results depend on the processing

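Over 771 alternative values for 40 gene results, 720 counted as unchanged, 21 were newly called and 10 were no longer called. These totals include alternatives that lowered or dropped only the fold threshold. They reused the main fit, so their values could not move. Most of the new calls came from them, for results already past the adjusted p, and the totals do not measure robustness. Of the rest, 8 values without a test moved beyond the replicate spread and 12 tested values turned in sign. A tested value was unchanged if its direction and its call stayed, so a loss of the adjusted p by an uncalled result was not counted. A value without a test was unchanged within the replicate spread, even where its sign turned, as for PAPPA between the pools with vehicle (lowest −0.144). Without PAPPA and without the fold threshold, 6 of 7 members passed between the pools with vehicle, against 4.18% of all genes tested. With DY131 in DU145-Esrrb 6 passed against 58.7%, between the treated pools 6 against 50.4%, and for the interaction 5 against 33.7%. In the contrast of the rule, DY131 in DU145-pc3.1, 5 passed against 37.4%, from which nothing is read. At 1.5-fold, 2 members passed between the pools with vehicle, against 1.37% of all genes, and 3 with DY131 in DU145-Esrrb, against 27.8%. In the contrast of the rule 4 passed at 1.5-fold with PAPPA counted, against 11.6%, from which nothing is read. Requiring 10 counts in every library left PAPPA untested, and IGFBP6 still passed both thresholds with DY131 in DU145-pc3.1. With DY131 in DU145-Esrrb 0 passed under the length and GC correction, where IGFBP6 was at −0.88, and between 0 and 2 with 1 library left out. The 0 came without the first DU145-Esrrb vehicle replicate and the 2 without treated DU145-Esrrb library a. Between the treated pools IGFBP2 fell short of 2-fold without the first DU145-pc3.1 DY131 replicate (−0.92) or without treated DU145-Esrrb library b (−0.97). It was at −0.997 under the length and GC correction. IGFBP3 stayed between −3.11 and −2.95 there over the alternatives. For the interaction IGFBP3 alone passed with DESeq2, and its value stayed between −1.80 and −1.64 over the alternatives.

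Sign turned for IGFBP2 between the pools with vehicle without the second DU145-pc3.1 (−0.17) or the first DU145-Esrrb vehicle replicate (−0.05; left-out range to 0.27), for STC2 with DY131 in DU145-Esrrb under the junction (−0.11) and the length and GC correction (−0.0305), and for the interaction of IGF1R under the junction correction (−0.0365). STC1 between the treated pools turned without the second DU145-pc3.1 DY131 replicate (−0.0050), without treated DU145-Esrrb library a (−0.0054), and under the junction (−0.20) and the length and GC correction (−0.0099), with a left-out range up to 0.11. The interaction of IGFBP6 turned without the second DU145-pc3.1 vehicle (−0.03), the second DU145-Esrrb vehicle (−0.10) or the first DU145-pc3.1 DY131 replicate (−0.10), with a left-out range up to 0.22. All reported values of these 5 were within adjusted p of 0.132 to 0.955. The cause was not tested.

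Replicate numbers were taken from the sample titles for 6 libraries, and the column headings carry other numbers for some of these. Libraries with the same number by title deviated together with correlations of 0.0917, 0.0229 and −0.0685. These values cannot show whether pairs exist under the numbers of the headings. The main model took no pairs. With the replicate number of the titles as a block, 1 member was called between the pools with vehicle, the same count as without it. IGFBP6 and IGF1R between the vehicle pools then had adjusted p of 0.0612 and 0.0541 by the quasi-likelihood test. The 2 members past both thresholds with DY131 in DU145-pc3.1 under the block include PAPPA, chosen on that contrast, and nothing is read from them. The treated DU145-Esrrb libraries have no numbers, and no block was fitted to the other comparisons. An exact test of the interaction, and a fit of it on fewer groups, could not be made. The depth limits PAPPA, IGFBP5, IGFBP7 and the ligands.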
